A study of Mus musculus with 24 samples.

Results

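Mouse genes that were predicted from sequence and have no functional name carry the symbol Gm and a number, and 72 of them are described here across bone marrow-derived macrophages (BMDMs) of 2 genotypes in 3 states of polarization. They are the rows of the count table whose symbol is Gm followed by digits alone and whose counts sum to at least 240 over the 24 libraries. Of 1205 such symbols among 24557 rows, 76 reached that minimum, and Gm15441, Gm16617, Gm14023 and Gm7457 were left out. The members were thus chosen by symbol and selected on summed counts, so the size of those counts is a description and not a finding. Just inside the minimum stood Gm29811 with 254 counts and Gm867 with 240, and just outside it Gm19345 and Gm16548 with 219 each. A gene counted mainly in 1 state could pass through that state alone: without the 8 M1 libraries 10 of the 72 genes would have stayed under the minimum, without the M2 libraries 8, and without the M0 libraries 11. Of the genes described below, these include Gm11978, Gm4841, Gm12185, Gm6654, Gm10584 and Gm867 for M1. They include Gm16159, Gm5088 and again Gm867 for M2, and Gm19424, Gm11747, Gm15511 and again Gm16159 and Gm867 for M0. A high level of these genes in that state is therefore not independent of the selection. Fold changes, p-values and the separation of libraries given below for that state carry the same limit.

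The 6 groups were Ltb4r2-/- M1, M2 and M0 and WT M1, M2 and M0, with 4 libraries each, which the labels call biological replicates. Ltb4r2 encodes BLT2, the low-affinity receptor for leukotriene B4, and the mutant mice, kept on a C57BL/6J background, lack it in all cells, so the marrow precursors lacked it too. The WT cells came from littermates, and the age of the donors is not given in the sources used here. All cells grew for 7 days with 10 ng/ml M-CSF, the growth factor of macrophages. From day 7, for 16 h, lipopolysaccharide (LPS) at 10 ng/ml with IFN-γ at 25 ng/ml gave M1-like cells, IL-4 at 10 ng/ml gave M2-like cells, and M0 cells had no such addition.

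Libraries held 427825 to 729580 counts over 5933 to 7315 detected genes. Ltb4r2 itself had 0 to 5 counts in libraries labelled Ltb4r2-/- and 0 counts in all 12 WT libraries, so its counts do not check the genotype labels. Of 12 macrophage markers 8 or 9 reached a mean of 10 counts in each group, and their summed level was 650 to 826 CPM in Ltb4r2-/- M1 and 808 to 913 CPM in Ltb4r2-/- M2, against 1647 to 2065 CPM in Ltb4r2-/- M0. In WT cells it was 757 to 1245 CPM in M1 and 652 to 1123 CPM in M2, against 1801 to 2267 CPM in M0, and the part of this fall in the results was not tested. Of 10 M1 markers 7 did so in M1 cells of both genotypes, and of 10 M2 markers 5 did so in M2 cells. No neutrophil, T and NK cell, B cell or stromal marker did so in any group. 1 erythroid marker reached it, in Ltb4r2-/- M0. Of 6 dendritic cell markers 1 did in M1 and 2 did in M2 and M0 of each genotype. Their summed level was 654 to 1059 CPM in Ltb4r2-/- M1 and 480.5 to 804 CPM in WT M1. It was 62.8 to 103 CPM in Ltb4r2-/- M0 and 29.1 to 49.9 CPM in WT M0. In Ltb4r2-/- M1 5 of the 6 were at 0, so the sum there is that of 1 gene. In WT M1 4 of the 6 were at 0. Such sums do not show that dendritic cells were present, and a part of these cells in the results on M1 was not tested. CPM are counts scaled to a common library size, with the trimmed mean of M-values (TMM) taken over all 24 libraries. Marker levels are those of table entries. As described below for the members, such counts cannot be assigned to the RNA that a symbol names. The marker sums are therefore no check of which cells were present.

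Symbols of this kind cover different sorts of genes. Many are long noncoding RNAs, which are transcripts without a known protein, and among these antisense RNAs are read from the DNA strand opposite to another gene and can share sequence with it. Others are processed pseudogenes, copies of a messenger RNA that were written back into the genome, which can take up reads of their parent gene. A few encode proteins, such as the GTPases by which IFN-γ arms cells against intracellular microbes. LPS is known to act on macrophages through NF-κB and IL-4 through STAT6.

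The 72 genes lay on all 19 autosomes and took 481684 counts, which is 3.76% of all counts of the table. The 10 with the highest sums held 62.2% of these, and the median sum was 2508.5 counts. Of the 63 that GENCODE M21 (GRCm38, the assembly of mm10) places by symbol, 33 were annotated as antisense, 7 as lincRNA, 7 as processed transcript, 1 as bidirectional promoter lncRNA, 8 as protein coding and 7 as pseudogenes, 4 of them transcribed. The 9 others were placed by RefSeq alone. The share of counts in the members was 3.40% ± 0.12 in Ltb4r2-/- M1, 3.71% ± 0.11 in Ltb4r2-/- M2 and 4.32% ± 0.10 in Ltb4r2-/- M0 (SD, n = 4 each). In WT cells it was 3.24% ± 0.06, 3.82% ± 0.13 and 4.14% ± 0.06 for M1, M2 and M0.

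Most of the placed members, though not all, had another gene on the other strand. Exons of 54 of the 63 placed members (85.7%) overlapped exons of an opposite-strand gene, against 61.7% of the 3010 placed genes that were tested and 24.1% of all placed genes of the table. These 54 held 97.5% of the counts of the placed members. The overlap spanned 25 to 2333 bp with a median of 338 bp. In 23 pairs the 3′ ends met, in 13 the 5′ ends, in 15 the Gm-numbered gene lay within the partner and in 3 the partner lay within it. The partner coded for protein in 49 of the 54 pairs, and 39 overlaps touched its coding sequence.

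Counts were far apart within these pairs. Of the 52 partners with a row in the table, 50 had fewer counts than the Gm-numbered gene, with a median of 51 counts for the partner and 2605.5 for the member over 24 libraries. Srsf4, a splicing factor, had 1278 counts against 42681 for Gm12992, and Ap2a2, a subunit of the endocytic adaptor AP-2, had 53 counts against 28503 for Gm16982. The exceptions were Ccdc167 with 41034 counts against 2174 for Gm28043, and Slc35e2 with 2789 against 2693 for Gm16023. The library kit marks the strand per the labels, but whether the counting used it is not given in the sources used here. Entries of mRNAs that are abundant in macrophages held few of the counts, with sums over the 24 libraries of 1915 for Actb, 551 for Gapdh, 1019 for Eef1a1 and 3123 for the lysozyme gene Lyz2. Tsix, the antisense RNA of Xist, had 21789 counts against 70 for Xist, the RNA that coats the inactive X chromosome. These 6 genes were chosen after their counts were seen. If the counting took the strand opposite to the one the kit marks, the counts listed under a member would be reads of the gene on its other strand, and this was not tested. Reads of a member and of the gene opposite it therefore cannot be told apart from these counts. Each value is that of the table entry with the Gm symbol, and its changes cannot be assigned to the RNA that the symbol names. The same limit holds for the table entries of the partners, parent genes and markers named in the text.

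**Figure D1:**
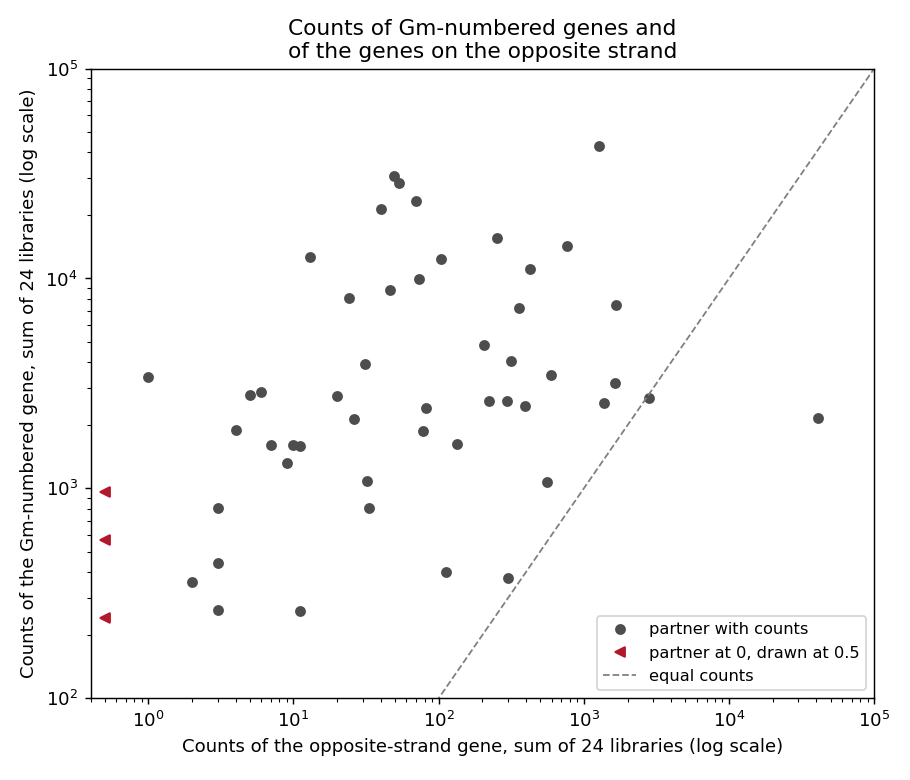
Summed counts over 24 libraries of the 52 Gm-numbered genes whose opposite-strand partner has a row in the table (vertical axis, log scale) against the counts of that partner (horizontal axis, log scale), 1 point per pair, with the 3 partners at 0 counts drawn as triangles at 0.5 and the dashed line marking equal counts. All but 2 points lie above the line.

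Polarization to M1 moved most of the members. In Ltb4r2-/- cells 23 of 72 members were higher in M1 than in M0 (31.9%, against 27.1% of all 3047 genes tested) and 28 were lower (38.9%, against 25.7%), so that 70.8% were called against 52.8%. In WT cells 23 were higher (31.9%, against 26.9%) and 26 were lower (36.1%, against 24.3%), so that 68.1% were called against 51.2%. Calls are those of edgeR's quasi-likelihood test at a Benjamini-Hochberg adjusted p under 0.05 over all genes. The members were selected on summed counts and the other genes were not, so the shares compared here and below are not matched for count. Members that passed the minimum only with the libraries of 1 state are counted in these shares. A mean of at least 50 counts kept 48 of the 72 members, but 959 of the 3047 genes. Changes are called more readily at higher counts, and whether genes of like count were called as often was not tested. The median log2 fold change of the members was 0.02 in Ltb4r2-/- and 0.06 in WT cells, against 0.00 and −0.02 over all genes. These medians did not move when genes without counts in a group were put at their bounds. A median cannot move while the replaced genes stay on their side of it, so this does not check the medians. Members with an exon opposite another gene were called in 74.1% of 54 cases in Ltb4r2-/- M1 and 68.5% in WT M1, against 53.8% and 53.4% of the 1802 other genes with such an overlap. In both genotypes 21 members rose (29.2%, against 23.6% of all genes) and 24 fell (33.3%, against 20.5%). A further 17 were called in neither genotype and 10 in 1 genotype, and none was called in opposite directions. For these further counts the shares over all genes were not computed, so they are a description only. With library totals alone in place of TMM, the median of all genes was −0.60 in Ltb4r2-/- and −0.64 in WT cells, and the members split into 11 higher and 42 lower in Ltb4r2-/- and 13 higher and 40 lower in WT cells. Changes of M1 over M0 are therefore relative to the median gene, and in bulk RNA fewer cells of a type and less RNA per cell cannot be told apart.

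**Figure D2:**
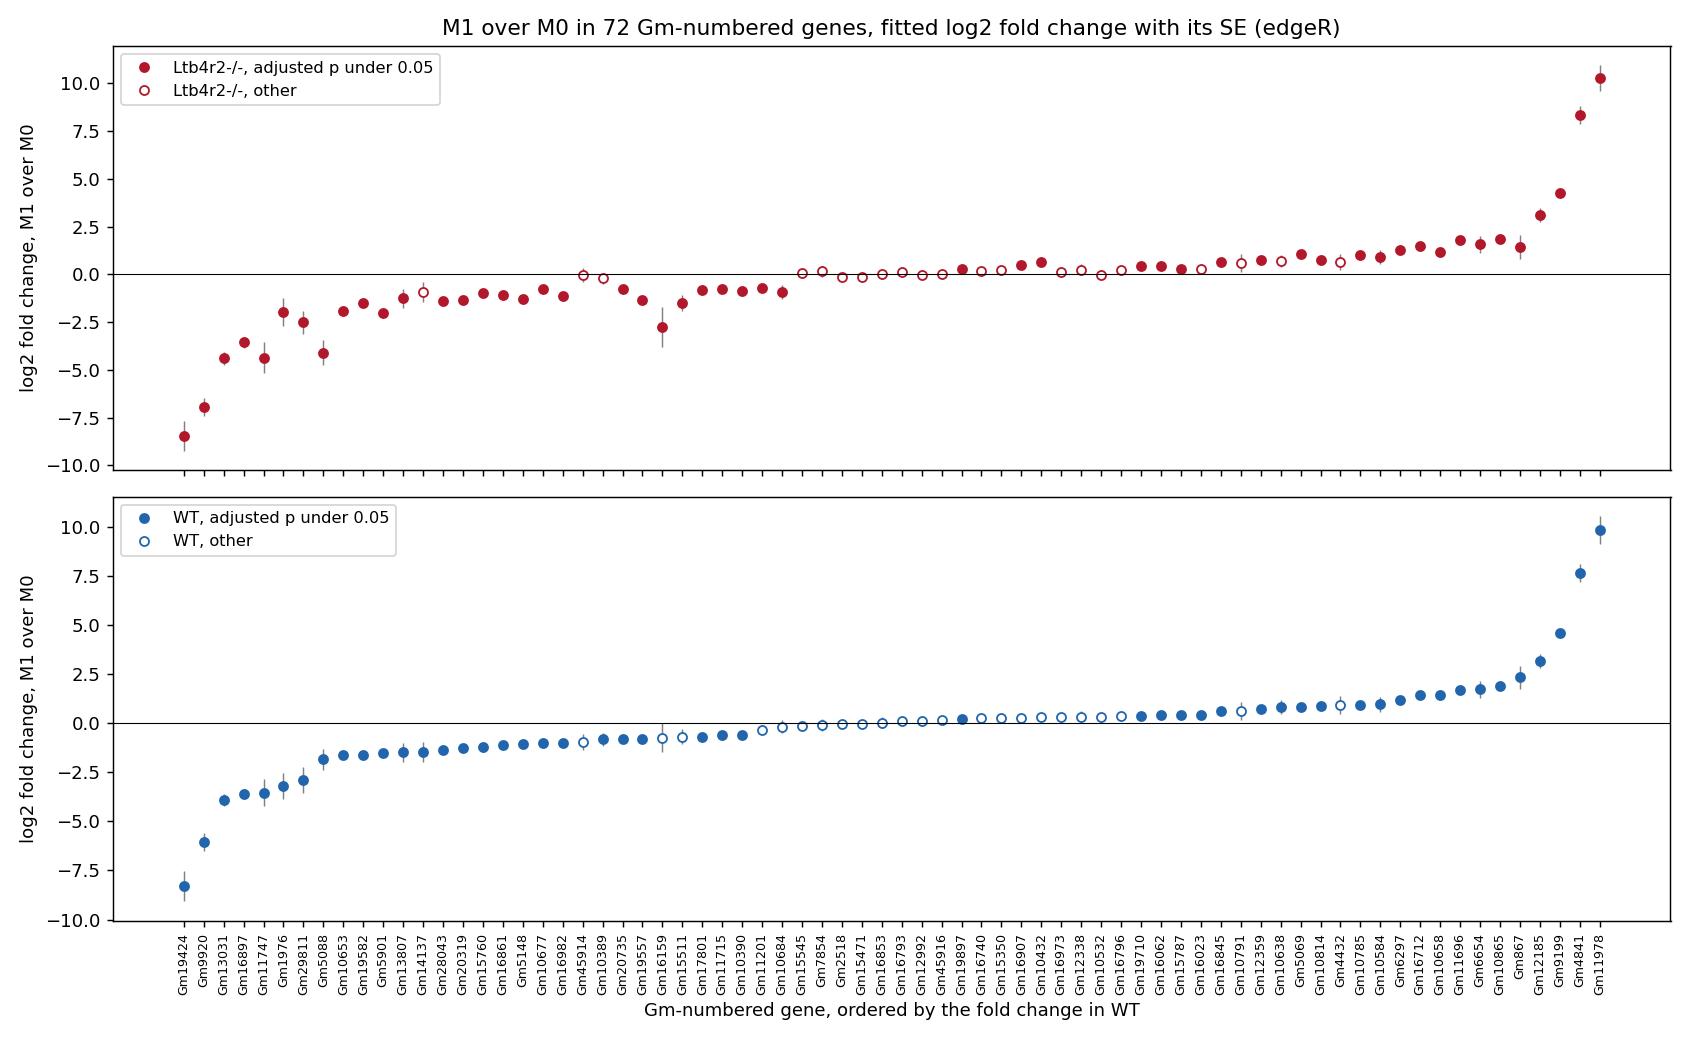
Fitted log2 fold change of M1 over M0 (vertical axis) of the 72 Gm-numbered genes, ordered by the value in WT (horizontal axis), in Ltb4r2-/- cells (upper panel) and WT cells (lower panel), with SE bars and filled points where the adjusted p of edgeR was under 0.05. The order found in WT runs from Gm19424 to Gm11978 and most members keep their side of 0 in Ltb4r2-/- cells, where 23 were called higher and 28 lower. Fitted values of genes with 0 counts in a group are no bounds.

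The strongest rises in M1 came from genes at or near 0 counts in M0. Gm11978, a transcribed pseudogene on chr11:6650148-6660233 whose 5′ end overlaps that of Ramp3, a partner of the calcitonin receptor-like receptor, by 101 bp, had 237, 415, 263 and 235 CPM in Ltb4r2-/- M1 and 289, 115, 280.3 and 172 CPM in WT M1. It had 0 counts in all 8 M0 libraries. Its level was thus at least 254-fold higher in Ltb4r2-/- M1 and at least 164-fold higher in WT M1, with the floor set at 3 counts over the 4 M0 libraries of the genotype. In M2 it was lower than in M1, at 19.7 ± 12.9 CPM in Ltb4r2-/- and 22.1 ± 8.7 CPM in WT cells (SD, n = 4 each), which is still at least 16.2-fold and 18.0-fold higher than in M0. Ramp3 had 0 counts in all 24 libraries.

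2 protein-coding members are annotated as GTPases induced by IFN-γ, under the RefSeq synonyms Ifgga3 and Irgb2b1. Gm4841 (Ifgga3) had 306.5 to 346 CPM in Ltb4r2-/- M1 and 222 to 349 CPM in WT M1. In M0 it had 2 counts over the 4 Ltb4r2-/- libraries and 3 over the 4 WT libraries, so that it was 428-fold higher in Ltb4r2-/- M1 (95% counting interval 118 to 3547) and 232-fold higher in WT M1 (79.1 to 1131). These intervals cover counting error only. No gene is annotated opposite its exons, and in M2 it had 2 counts over the 4 Ltb4r2-/- libraries and 0 over the 4 WT libraries.

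Gm12185 (Irgb2b1) lies on chr11:48904656-48992226 on the minus strand, where it shares 223 bp of exon with Tgtp1, another GTPase of this family, on the same strand. It had 176.5, 115, 98.3 and 106 CPM in Ltb4r2-/- M1, against 11.7, 19.4, 16.5 and 8.56 CPM in Ltb4r2-/- M0. WT M1 libraries had 132, 126, 160.5 and 153 CPM, against 10.97, 9.10, 24.2 and 17.4 CPM in WT M0. The M1 and M0 libraries did not overlap in either genotype. Gm12185 would not have reached the minimum of summed counts without the M1 libraries. Its rise and the p-values below are thus not independent of the selection. The log2 fold change was 3.11 ± 0.37 in Ltb4r2-/- (adjusted p = 1.2e-08) and 3.17 ± 0.37 in WT cells (adjusted p = 7.5e-09, edgeR, SE).

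The promoters of Gm16712 and Gm20319 are shown because these genes moved in opposite directions in both polarized states, as described below. A RefSeq window runs from 250 bases before to 50 after the annotated start (GRCm38.p6), 44 members have one, and both strands were read. The windows lie on chr17:55959352-55959651 for Gm16712 and chr16:26755453-26755752 for Gm20319, both on the minus strand. STAT6-like letters (TTC and GAA with any 4 bases between) were in 3 of the 44 member windows, against 6.99% of 27025 windows, and NF-κB-like letters (GGGA, any base, TTTCC) in none against 0.385%. Neither window shown holds these letters, so no letter is in capitals. A match is a run of letters and not a shown binding site.
Gm16712: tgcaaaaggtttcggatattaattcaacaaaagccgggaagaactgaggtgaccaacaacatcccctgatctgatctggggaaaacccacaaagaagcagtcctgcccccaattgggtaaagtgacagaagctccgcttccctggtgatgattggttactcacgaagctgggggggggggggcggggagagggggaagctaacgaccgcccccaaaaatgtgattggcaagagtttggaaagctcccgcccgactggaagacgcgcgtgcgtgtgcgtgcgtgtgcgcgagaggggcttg
Gm20319: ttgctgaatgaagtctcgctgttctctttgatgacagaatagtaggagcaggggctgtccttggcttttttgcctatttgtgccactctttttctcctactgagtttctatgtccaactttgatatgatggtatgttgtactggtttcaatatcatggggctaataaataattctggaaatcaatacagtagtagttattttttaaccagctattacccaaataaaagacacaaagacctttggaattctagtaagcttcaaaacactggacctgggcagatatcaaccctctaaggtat

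Gm9199 is a transcribed pseudogene of Gcsh, a protein of the glycine cleavage system, on chr14:73025603-73026890. Its span covers 562 bp of exon of Cysltr2, a receptor for cysteinyl leukotrienes. It had 1363, 1217, 1402 and 1098 CPM in Ltb4r2-/- M1 and 199, 149, 112 and 100.0 CPM in Ltb4r2-/- M2, against 64.4, 73.1, 69.99 and 54.2 CPM in Ltb4r2-/- M0. WT cells had 1270, 998, 1170 and 1052 CPM in M1 and 179, 91.1, 194 and 143 CPM in M2, against 45.5, 80.1, 22.7 and 42.6 CPM in M0. No M1 or M2 library was as low as an M0 library of its genotype. The log2 fold change of M1 was 4.27 ± 0.23 in Ltb4r2-/- and 4.57 ± 0.24 in WT cells (adjusted p = 2.9e-17 and 1.8e-17, edgeR). That of M2 was 1.11 ± 0.24 and 1.70 ± 0.25 (adjusted p = 0.00034 and 2.0e-06). Gcsh had 6 counts and Cysltr2 4 counts over all 24 libraries.

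Other members rose in M1 by smaller factors from higher levels. Gm16712 is an antisense RNA on chr17:55954771-55959381 whose 3′ end overlaps by 270 bp that of Ebi3, a subunit of the cytokines IL-27 and IL-35. Per kb of exon it had the highest level of the 63 placed members in M1, at 2579 CPM per kb in Ltb4r2-/- and 2504 in WT cells, against medians of 94.5 and 87.6. Its libraries had 5519, 4667, 4942 and 5091 CPM in Ltb4r2-/- M1 and 1113, 958, 786 and 957 CPM in Ltb4r2-/- M2, against 1704, 1799, 1947 and 1665 CPM in Ltb4r2-/- M0. WT libraries had 5260, 4341, 5374 and 4655 CPM in M1 and 1033, 965, 1220.3 and 900.5 CPM in M2, against 1871, 1873, 1887 and 1704 CPM in M0. The 3 states did not overlap in either genotype. Gm16712 rose 2.83-fold in Ltb4r2-/- M1 and 2.66-fold in WT M1 (SE of each log2 fold change 0.10, adjusted p = 2.5e-14 and 1.3e-13, edgeR). It was lower in M2, with log2 fold changes of −0.90 ± 0.10 and −0.83 ± 0.10 (adjusted p = 1.6e-08 and 1.3e-07). Ebi3 had 49 counts in all 24 libraries, 18 of them in Ltb4r2-/- M1 and 11 in WT M1, and was not tested.

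Gm11696, whose exons overlap 1700096J18Rik and Gna13, a G protein subunit, had 3824 ± 90 CPM in Ltb4r2-/- M1 and 3186 ± 298 CPM in WT M1, against 1085 ± 72 CPM in Ltb4r2-/- M0 and 995 ± 60 CPM in WT M0 (SD, n = 4 each). It rose by 1.81 ± 0.09 and 1.67 ± 0.09 on the log2 scale (adjusted p = 9.5e-18 and 8.3e-17, edgeR). In M2 it was called lower in Ltb4r2-/- cells alone (−0.31 ± 0.09, adjusted p = 0.0090), a call that was lost without Ltb4r2-/- M2 replicate 3 (−0.24, adjusted p = 0.066). Gm10865, opposite the actin-binding Triobp, had 1438 ± 177 CPM in Ltb4r2-/- M1 and 1433 ± 93 CPM in WT M1, against 399.9 ± 39.6 and 378 ± 41 CPM in M0, and rose by 1.84 ± 0.11 and 1.91 ± 0.11. Gm10814, opposite the protease Capn1, rose by 0.78 ± 0.10 and 0.90 ± 0.10, but with library totals alone its value was 0.17 in Ltb4r2-/- cells (adjusted p = 0.091). Gm6654, a processed pseudogene of 348 bp within Med21, a Mediator subunit, had 30.8 to 73.3 CPM in Ltb4r2-/- M1 against 3.90 to 27.1 in Ltb4r2-/- M0, and 45.3 to 56.1 CPM in WT M1 against 3.02 to 25.5 in WT M0. It rose by 1.58 ± 0.43 (adjusted p = 0.0025) and 1.71 ± 0.44 (adjusted p = 0.0014), and with library totals alone the value in Ltb4r2-/- cells was 0.97 (adjusted p = 0.055).

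Members that fell in M1 included 2 that nearly lost their counts. Gm19424, a long noncoding RNA on chr19:41746961-41750097 with no exon of another gene in its span, had 0 counts in all 8 M1 libraries. It had 89.8, 85.0, 82.3 and 62.8 CPM in Ltb4r2-/- M0 and 67.4, 58.3, 84.6 and 79.3 CPM in WT M0. It was thus at least 43.8-fold lower in Ltb4r2-/- M1 and at least 44.7-fold lower in WT M1, with the floor of 3 counts over 4 libraries. In M2 it was also lower than in M0, at 37.8, 10.2, 12.7 and 18.3 CPM in Ltb4r2-/- and 24.2, 16.2, 31.8 and 26.5 CPM in WT cells, with log2 fold changes of −1.95 ± 0.36 and −1.54 ± 0.35 (adjusted p = 8.4e-05 and 0.0015, edgeR).

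Gm9920, a noncoding transcript on chr15:55099917-55113677 whose 5′ end overlaps that of Deptor, an inhibitor of mTOR, by 303 bp, had 2 counts over the Ltb4r2-/- M1 libraries and 3 over the WT M1 libraries. M2 libraries had 87.2, 40.8, 74.2 and 56.7 CPM in Ltb4r2-/- and 93.2, 62.7, 90.7 and 65.3 CPM in WT cells. M0 libraries had 148, 149, 178 and 215 CPM in Ltb4r2-/- and 105, 98.3, 145.06 and 145.09 CPM in WT cells. It was 145.1-fold lower in Ltb4r2-/- M1 (95% counting interval 39.9 to 1201) and 75.9-fold lower in WT M1 (25.7 to 370). In M2 it fell by 1.40 ± 0.25 and 0.65 ± 0.25 on the log2 scale (adjusted p = 3.2e-05 and 0.049, edgeR). The table entry of Deptor moved the same way in M1, with 0 counts in all 8 M1 libraries against mean levels of 63.0 CPM in Ltb4r2-/- M0 and 58.8 CPM in WT M0.

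Gm13031 overlaps the 3′ end of Padi2, an enzyme that citrullinates proteins, and had 4.57 to 16.9 CPM in Ltb4r2-/- M1 and 7.09 to 23.9 CPM in WT M1, against 176 to 263.5 CPM in Ltb4r2-/- M0 and 193 to 287 CPM in WT M0. Its log2 fold change was −4.38 ± 0.34 in Ltb4r2-/- and −3.89 ± 0.31 in WT cells (adjusted p = 5.6e-13 and 1.0e-12, edgeR). Gm16897, whose 5′ end overlaps that of the noncoding A330023F24Rik, had 8.88 to 28.0 CPM in Ltb4r2-/- M1 and 8.87 to 23.4 CPM in WT M1, against 152 to 228 CPM and 140.5 to 215 CPM in M0. Its log2 fold change was −3.56 ± 0.27 and −3.62 ± 0.27. Neither gene was called in M2. Gm10653, a pseudogene of the ribosomal protein gene Rps2 that overlaps Cln6, had the highest level per kb of the placed members in M0. It fell in M1 by 1.91 ± 0.13 and 1.63 ± 0.12 and in M2 by 0.80 ± 0.12 and 0.59 ± 0.12. Rps2 itself had 158 counts over 24 libraries against 12697 for Gm10653. Whether reads of near-identical copies were split between them was not tested.

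Among the members with the highest sums, Gm16982, within the adaptor gene Ap2a2, had 1233 ± 117 CPM in Ltb4r2-/- M1 and 1281 ± 67 CPM in WT M1, against 2649 ± 228 CPM in Ltb4r2-/- M0 and 2548 ± 272 CPM in WT M0. Its log2 fold change was −1.11 ± 0.10 and −0.997 ± 0.10 (adjusted p = 2.9e-11 and 3.3e-10, edgeR). Gm16861, whose 5′ end overlaps Nudt16l1, had −1.09 ± 0.11 and −1.11 ± 0.11. With the default filter both passed in M1 alone. With a mean of at least 50 counts Gm16982 also passed as lower in Ltb4r2-/- M2 (−0.23, adjusted p = 0.024, edgeR). Gm10677, whose RefSeq span on chr9:47799160-47818208 covers 541 bp of exon of the adhesion gene Cadm1, fell in both states. In M1 its log2 fold change was −0.75 ± 0.11 in Ltb4r2-/- and −1.01 ± 0.11 in WT cells, and in M2 it was −0.65 ± 0.11 and −0.54 ± 0.11.

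M2 calls were fewer. In Ltb4r2-/- cells 20 of 72 members were higher in M2 than in M0 (27.8%, against 16.9% of all genes tested) and 21 were lower (29.2%, against 15%), in all 56.9% against 32%. In WT cells 23 were higher (31.9%, against 15.2%) and 11 were lower (15.3%, against 11.8%), in all 47.2% against 27%. The median log2 fold change of the members was 0.11 in Ltb4r2-/- and 0.16 in WT cells, against 0 over all genes in each. In both genotypes 18 members rose (25%, against 12.7% of all genes) and 11 fell (15.3%, against 9.29%). Another 26 were called in neither, for which the share over all genes was not computed. The count of 23 in WT cells was 15 without WT M2 replicate 1 and 15 without WT M2 replicate 4. M1 and M2 were each set against the same M0 libraries, so the calls of the 2 comparisons are not independent.

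**Figure D3:**
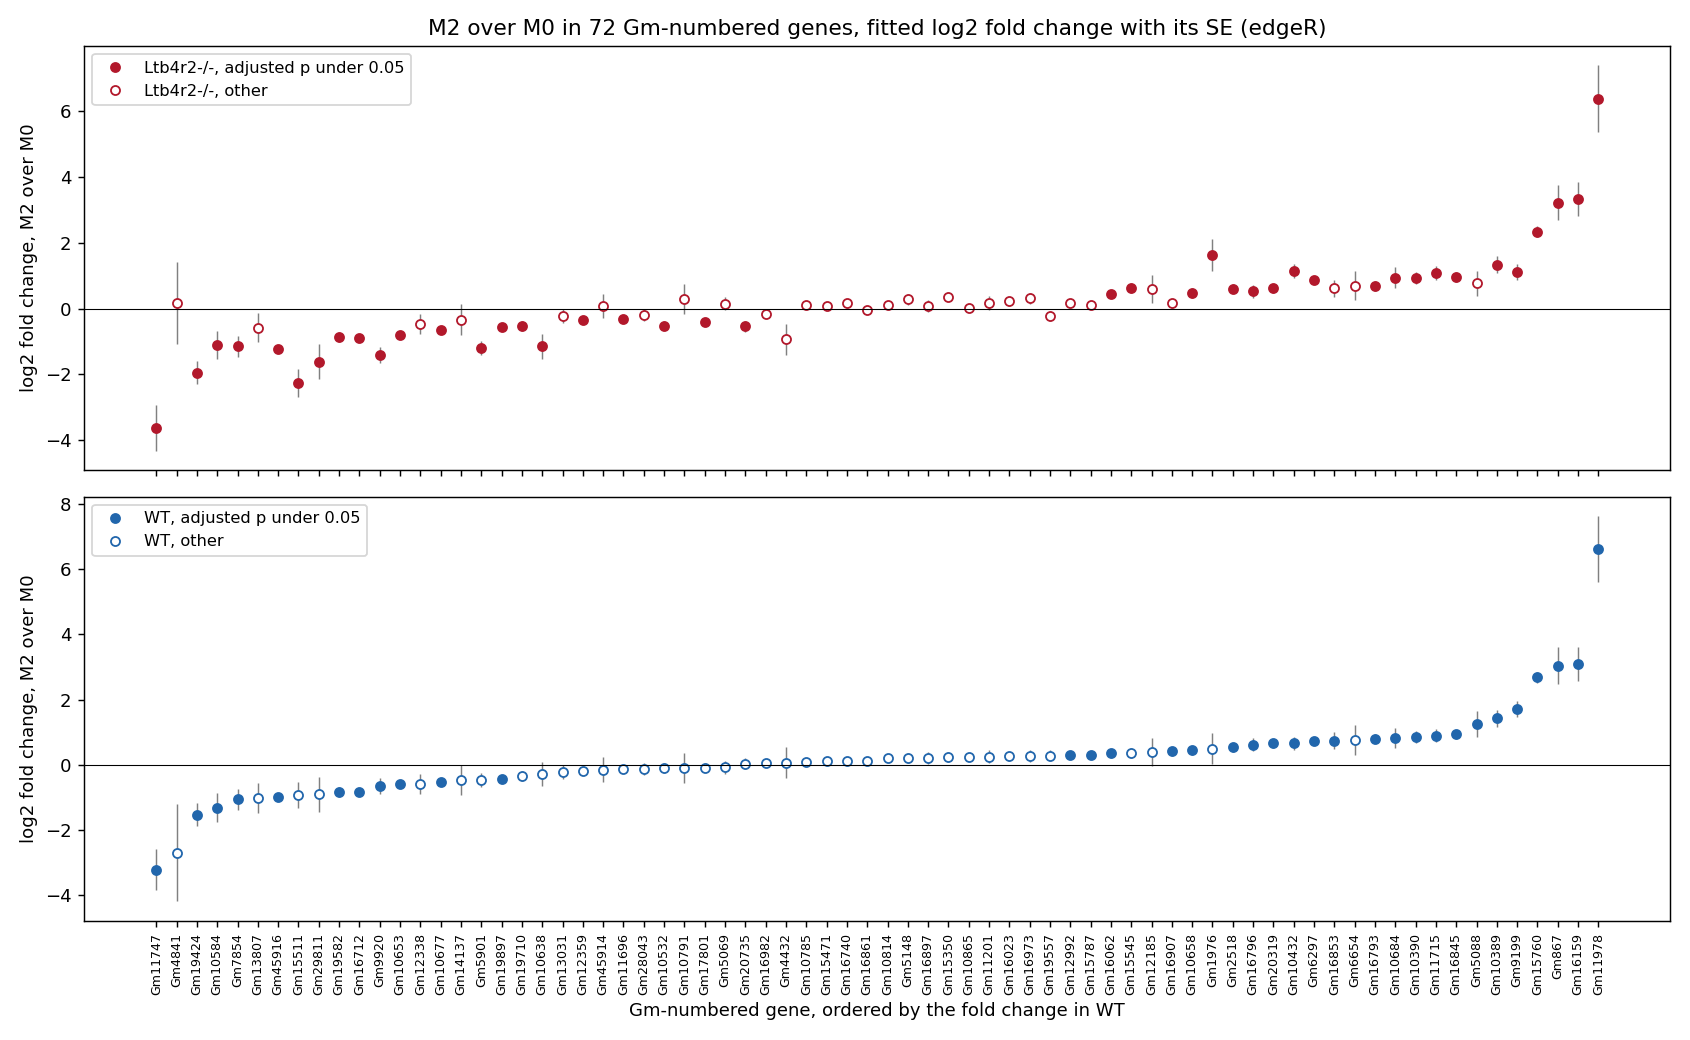
Fitted log2 fold change of M2 over M0 (vertical axis) of the 72 Gm-numbered genes, ordered by the value in WT (horizontal axis), in Ltb4r2-/- cells (upper panel) and WT cells (lower panel), with SE bars and filled points where the adjusted p of edgeR was under 0.05. In Ltb4r2-/- cells 20 members were called higher and 21 lower, and in WT cells 23 higher and 11 lower.

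Gm15760 and Gm16159 were among the members that rose most in M2. Gm15760 is a transcribed pseudogene of Mrps18b, a mitochondrial ribosomal protein gene, on chr16:20545212-20548456, with no gene annotated opposite its exons. Its libraries had 84.6, 51.1, 43.5 and 47.6 CPM in Ltb4r2-/- M1 and 639.6, 542, 545 and 513 CPM in Ltb4r2-/- M2, against 101, 113, 129 and 99.9 CPM in Ltb4r2-/- M0. WT libraries had 27.7, 33.7, 51.0 and 50.1 CPM in M1 and 626, 536, 697 and 551 CPM in M2, against 107, 113, 63.5 and 94.8 CPM in M0. Each state stood apart from the other 2 in both genotypes. In M2 the log2 fold change was 2.33 ± 0.17 in Ltb4r2-/- and 2.68 ± 0.17 in WT cells (adjusted p = 6.4e-13 and 6.8e-14, edgeR). In M1 it was −0.98 ± 0.21 and −1.24 ± 0.22 (adjusted p = 0.00015 and 1.5e-05). Mrps18b had 46 counts over the 24 libraries.

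Gm16159 lies within Fgfr1, a receptor of fibroblast growth factors, on its opposite strand. It had 24.7, 95.8, 53.0 and 55.0 CPM in Ltb4r2-/- M2, against 2.98 to 7.81 CPM in Ltb4r2-/- M0, and 89.7, 42.5, 23.9 and 38.8 CPM in WT M2, against 3.02 to 9.10 CPM in WT M0. The groups did not overlap although the M2 libraries spread widely. Its log2 fold change was 3.34 ± 0.52 and 3.08 ± 0.53 (adjusted p = 4.3e-06 and 2.6e-05, edgeR). Its 1 count in Ltb4r2-/- M1, against 14 in Ltb4r2-/- M0, made it 8.89-fold lower there (95% counting interval 1.35 to 376). Fgfr1 had 3 counts in all.

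Gm10389, within the actin-associated Rai14, had 142.5 to 220.5 CPM in Ltb4r2-/- M2 and 98.6 to 247 CPM in WT M2, against 37.0 to 125 CPM in Ltb4r2-/- M0 and 57.4 to 71.6 CPM in WT M0. It rose in M2 by 1.34 ± 0.26 and 1.42 ± 0.27 on the log2 scale. In M1 it was called lower in WT cells alone (−0.83 ± 0.32, adjusted p = 0.029, edgeR), and that call was lost without WT M1 replicate 4 (−0.77, adjusted p = 0.067). In Ltb4r2-/- M1 the value was −0.20 ± 0.29, and the difference between genotypes was not called (interaction 0.63 ± 0.43, adjusted p = 1.0).

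Gm16845 contains on its opposite strand Ecsit, an adaptor of Toll-like receptor signalling. Gm16845 rose in both states, by 0.64 ± 0.15 and 0.60 ± 0.15 in M1 and by 0.95 ± 0.14 and 0.93 ± 0.15 in M2 on the log2 scale, in Ltb4r2-/- and WT cells in that order. As with the members, the counts of a partner cannot be assigned to the RNA that its symbol names. The table entry of Ecsit went the other way. In M1 it had log2 fold changes of −1.97 (adjusted p = 3.1e-07) and −1.82 (adjusted p = 1.6e-06, edgeR), at mean levels of 45.1 CPM in Ltb4r2-/- M1 against 176 CPM in Ltb4r2-/- M0 and of 41.9 CPM in WT M1 against 144.7 CPM in WT M0. The pair of Gm28043 and Ccdc167 was opposed too in M1: Gm28043 fell in M1 by 1.39 ± 0.21 in both genotypes, while Ccdc167 rose by 1.66 and 1.60. Where a member and its partner were both called, they moved the same way in 5 pairs and in opposite ways in 4 in Ltb4r2-/- M1, and in 5 and 6 pairs in WT M1. Gm16861 with Nudt16l1, Gm16062 with Cops3, Gm19710 with Ubap2l and Gm9920 with Deptor moved the same way in both genotypes, and Gm16845, Gm28043, Gm6297 with Dnaja1 and Gm15787 with Chfr in opposite ways. Over all 63 opposite-strand partners, 59 had a row and 23 were tested. In Ltb4r2-/- M1 4 of these rose and 9 fell (56.5% called, against 52.8% of all genes), and in WT M1 5 rose and 7 fell (52.2%, against 51.2%). In Ltb4r2-/- M2 1 rose and 4 fell (21.7%, against 32%), and in WT M2 none rose and 3 of the 23 fell (against 27% called).

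Falls in M2 were led by Gm11747. It overlaps by 642 bp the 3′ end of C1qtnf1, a secreted C1q-related protein gene, and had 0, 4.44, 0 and 2.80 CPM in Ltb4r2-/- M1 and 1.45, 2.04, 8.48 and 1.67 CPM in Ltb4r2-/- M2, against 31.2, 47.7, 64.5 and 22.8 CPM in Ltb4r2-/- M0. WT libraries had 4.25, 8.87, 2.55 and 0 CPM in M1 and 0, 2.02, 15.9 and 2.04 CPM in M2, against 29.8, 74.6, 52.9 and 48.4 CPM in M0. Both polarized states lay under M0 in every library. In M2 the log2 fold change was −3.62 ± 0.69 in Ltb4r2-/- and −3.21 ± 0.64 in WT cells (adjusted p = 9.5e-05 and 0.00020, edgeR). The 3 counts of Ltb4r2-/- M1 made it 23.5-fold lower than Ltb4r2-/- M0 (95% counting interval 7.83 to 116), and in WT M1 the log2 fold change was −3.53 ± 0.68.

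Gm45916 had the highest summed count of the members, 57753. It lies on chr11:109440078-109453359, where its span covers 2505 bp of exon of Slc16a6, a monocarboxylate transporter on the opposite strand. It had 4886 to 6496 CPM in Ltb4r2-/- M1 and 2318 to 2555 CPM in Ltb4r2-/- M2, against 5185 to 5899 CPM in Ltb4r2-/- M0. In WT cells it had 5469 to 5908 CPM in M1 and 2391 to 2653 CPM in M2, against 4488 to 5443 CPM in M0. It fell in M2 by 1.22 ± 0.09 and 0.99 ± 0.08 on the log2 scale (adjusted p = 2.8e-13 and 5.7e-11, edgeR). In M1 it did not pass (0.03 ± 0.08 and 0.14 ± 0.08), and its sign there turned with library totals alone, at −0.58 and −0.48. Gm19582, within the kinase gene Dgkd, fell in M2 by 0.87 ± 0.15 and 0.84 ± 0.15 and in M1 by 1.52 ± 0.16 and 1.62 ± 0.16. Gm7854, whose 5′ end overlaps that of the translational regulator Cpeb2, fell in M2 by 1.15 ± 0.31 and 1.06 ± 0.31 (adjusted p = 0.0039 and 0.011), and the call in Ltb4r2-/- cells was lost without Ltb4r2-/- M0 replicate 4 (−0.73, adjusted p = 0.067).

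Both M1 and M2 were called higher in both genotypes for 7 members (9.72%, against 4.33% of all genes), Gm6297, Gm16062, Gm9199, Gm10658, Gm16845, Gm11978 and Gm867, and lower for 6 (8.33%, against 5.09%), Gm10677, Gm10653, Gm19582, Gm9920, Gm19424 and Gm11747.

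Directions opposed between M1 and M2 were called for 13 members in Ltb4r2-/- (18.1%, against 5.78% of all genes) and 9 in WT cells (12.5%, against 5.61%), 7 of them in both (9.72%, against 3.87%). Gm16712, Gm19897 and Gm10584 were higher in M1 and lower in M2, and Gm15760, Gm20319, Gm11715 and Gm10390 were lower in M1 and higher in M2. Gm20319, on chr16:26714446-26755502, overlaps by 552 bp the 3′ end of Il1rap, the accessory chain of the IL-1 receptor. It had 94.3, 88.8, 73.2 and 86.9 CPM in Ltb4r2-/- M1 and 297, 373, 341 and 323 CPM in Ltb4r2-/- M2, against 193, 207, 258 and 211 CPM in Ltb4r2-/- M0. WT libraries had 97.8, 97.5, 63.7 and 66.8 CPM in M1 and 295, 346, 299 and 323 CPM in M2, against 223, 211, 189 and 172 CPM in M0. Each state stood apart from the others in both genotypes. The log2 fold change was −1.35 ± 0.16 and −1.27 ± 0.16 in M1 (adjusted p = 8.6e-09 and 3.1e-08, edgeR) and 0.61 ± 0.14 and 0.66 ± 0.14 in M2 (adjusted p = 0.00075 and 0.00046), in Ltb4r2-/- and WT cells in that order. Il1rap had 5 counts in all.

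Gm11715, whose 3′ end overlaps that of the nucleolar gene Nol11, had −0.77 ± 0.22 and −0.63 ± 0.22 in M1 and 1.08 ± 0.20 and 0.89 ± 0.20 in M2, as log2 fold changes in Ltb4r2-/- and WT cells. Gm10584, whose 5′ end overlaps by 1206 bp that of Chst15, a chondroitin sulfotransferase gene, had 0.92 ± 0.38 and 0.97 ± 0.38 in M1 and −1.11 ± 0.43 and −1.31 ± 0.44 in M2. Its 4 adjusted p by edgeR lay between 0.025 and 0.045. With no filter all 4 calls were lost (adjusted p = 0.052 to 0.25, edgeR). Library totals alone ended both M1 calls, at 0.33 in Ltb4r2-/- and 0.35 in WT cells (adjusted p = 0.48 and 0.44, edgeR). DESeq2 ended 3 of the 4 calls and the replicate block 2, in Ltb4r2-/- M1 (0.91, adjusted p = 0.062) and Ltb4r2-/- M2 (−1.14, adjusted p = 0.053), and leaving out 1 library ended each of them, with values down to 0.63 without Ltb4r2-/- M1 replicate 3, 0.77 without WT M0 replicate 3, −0.82 without Ltb4r2-/- M2 replicate 3 and −0.87 without WT M0 replicate 4. Gm19897, opposite the deacetylase gene Sirt2, fell in M2 by 0.57 ± 0.09 and 0.44 ± 0.09. Its rise in M1 (0.26 ± 0.09, adjusted p = 0.014, and 0.23 ± 0.09, adjusted p = 0.031) turned to a fall of −0.34 and −0.39 with library totals alone. The M1 call of Gm19897 in WT cells was also lost with RLE scaling factors (adjusted p = 0.091), DESeq2 (0.087), no filter (0.84), the stricter minimum of 50 counts on average (0.085), the 8 libraries alone (0.12) and without any 1 of the 8 libraries (0.060 to 0.24). That in Ltb4r2-/- cells was lost with no filter (0.76) and without replicate 2 or 4 of Ltb4r2-/- M1 or M0 (0.055 to 0.093), so the opposed direction of Gm19897 rests on the fit as specified. The M1 rise of Gm15787 in Ltb4r2-/- cells (0.29 ± 0.11) also turned with library totals alone, to −0.30. That in WT cells (0.40) turned to −0.21 and was no longer called (adjusted p = 0.099, edgeR). Gm5088, a pseudogene of a cytoplasmic poly(A)-binding protein gene on chr14:89896224-89899447, was 18.8-fold lower in Ltb4r2-/- M1 with 3 counts there (95% counting interval 6.24 to 93.1), had a log2 fold change of −1.84 ± 0.54 in WT M1, and was called higher in M2 in WT cells alone (1.26 ± 0.40, adjusted p = 0.018), a call lost without WT M0 replicate 1 (0.95, adjusted p = 0.098), WT M2 replicate 1 (1.11, adjusted p = 0.073) or WT M2 replicate 4 (1.14, adjusted p = 0.061).

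**Figure D4:**
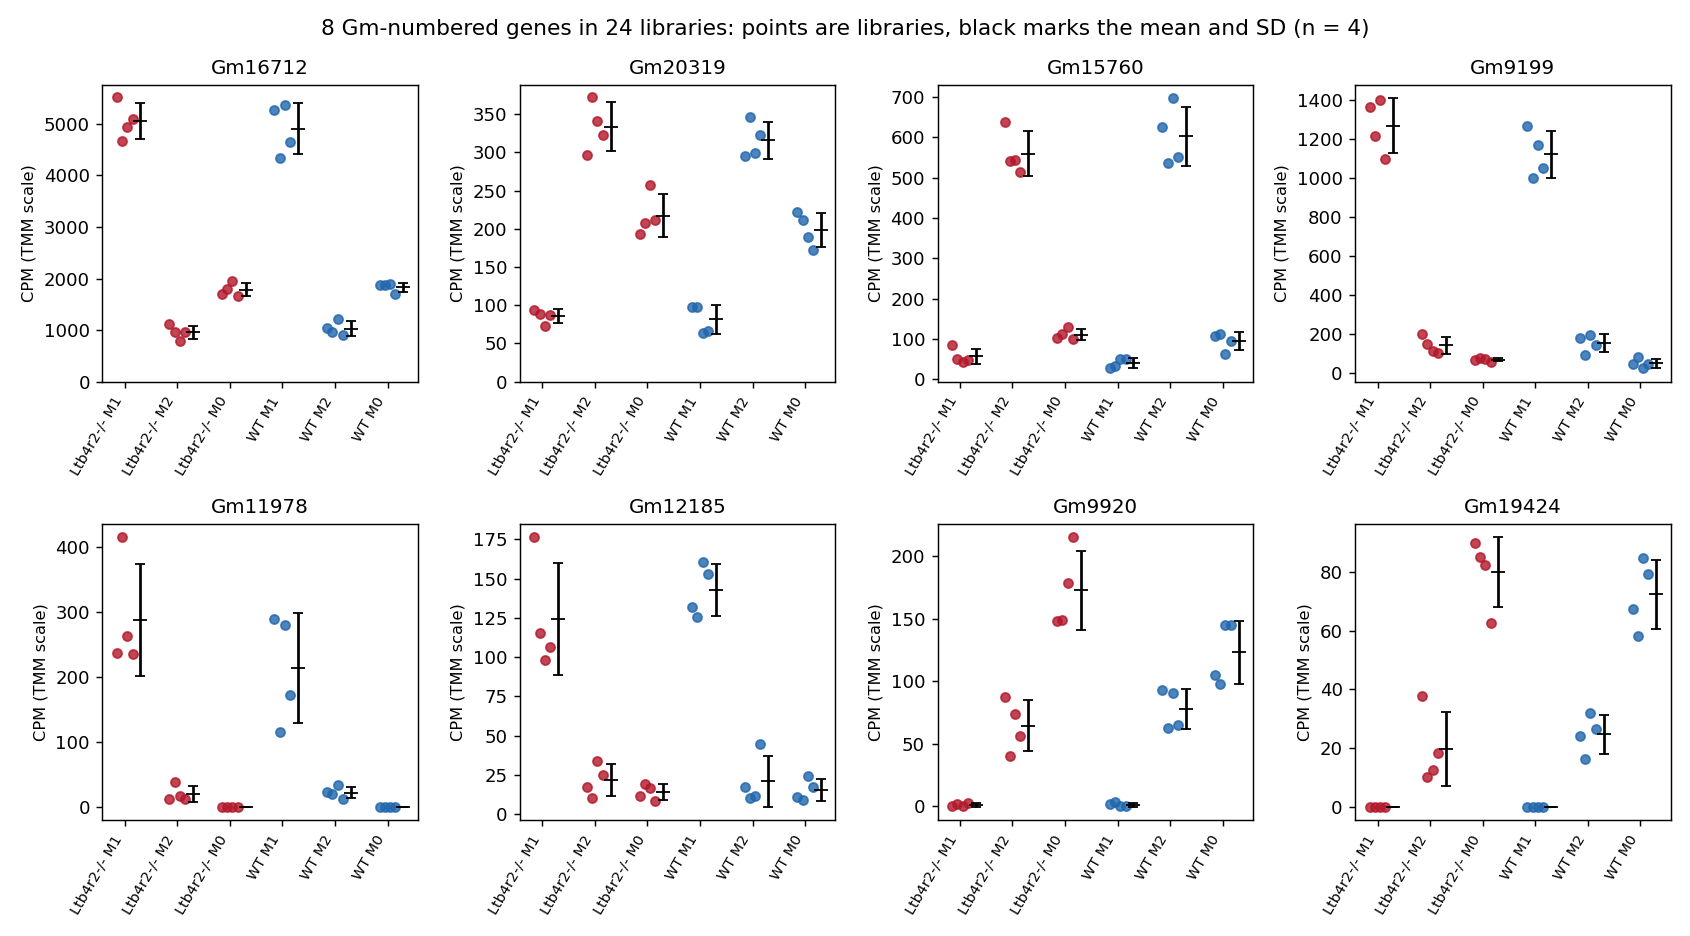
CPM on the TMM scale (vertical axes) of 8 Gm-numbered genes in the 24 libraries, 1 panel per gene, with groups on the horizontal axes, Ltb4r2-/- in red and WT in blue, and the mean and SD of 4 libraries in black. Gm16712 is high in M1 and low in M2, Gm20319 and Gm15760 the reverse, Gm11978, Gm9199 and Gm12185 are highest in M1, and Gm9920 and Gm19424 are at or near 0 there.

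8 members were called in no comparison of a polarized state with M0, among them Gm15350, Gm15471, Gm16740 and Gm16973, which had the highest sums of the 8. The share of all genes without such a call was not computed, so this count is a description only. Gm15350, within the flippase gene Atp11a, had the highest level per kb of the placed members in M2, at 1148 CPM per kb in Ltb4r2-/- and 1060 in WT cells. Its log2 fold changes lay between 0.23 ± 0.14 and 0.36 ± 0.14. Its value in Ltb4r2-/- M2 passed with the replicate block (0.35, adjusted p = 0.037), with the 8 libraries alone (0.36, adjusted p = 0.037), with a mean of at least 50 counts (0.30, adjusted p = 0.047) and without Ltb4r2-/- M0 replicate 2 or Ltb4r2-/- M2 replicate 1 or 4 (0.42 to 0.45, adjusted p = 0.022 to 0.042). Gm15471, all of whose 1236 bp of exon lie opposite the DNA repair gene Dclre1b, had 341 ± 48 CPM in Ltb4r2-/- M1, 385 ± 69 CPM in Ltb4r2-/- M2 and 368 ± 23 CPM in Ltb4r2-/- M0, and 364 ± 17 CPM in WT M1, 395 ± 55 CPM in WT M2 and 369 ± 38 CPM in WT M0. Gm12992, opposite Srsf4, was called in WT M2 (0.29 ± 0.08, adjusted p = 0.0064, edgeR), a call lost without WT M2 replicate 4 (0.20, adjusted p = 0.095) and with no filter (0.24, adjusted p = 0.22). It was called in Ltb4r2-/- M2 by DESeq2 alone (0.16, adjusted p = 0.049), and in M1 with library totals alone, as lower in Ltb4r2-/- (−0.62, adjusted p = 9.7e-09) and WT cells (−0.50, adjusted p = 6.6e-07). Gm16907 was called higher in M1 in Ltb4r2-/- cells (0.49 ± 0.14, adjusted p = 0.0035) and in M2 in WT cells (0.41 ± 0.14, adjusted p = 0.024), and the M2 call was lost without WT M0 replicate 1, 2 or 3 or WT M2 replicate 1 or 4, with values of 0.33 to 0.39, and with DESeq2 (0.38).

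The comparison of genotypes asked whether loss of Ltb4r2 changed these genes within a state. No member passed the adjusted threshold of edgeR in any state, among 60 tested in M1, 65 in M2 and 68 in M0, where 0.0509%, 0.19% and 0.131% of all genes tested passed. At an unadjusted p under 0.05 there were 5 of 60 members in M1 (8.33%, against 7.49% of all genes), 0 of 65 in M2 (against 2.99%) and 4 of 68 in M0 (5.88%, against 5.91%). DESeq2 called none either, with 4, 1 and 4 at an unadjusted p under 0.05 in M1, M2 and M0. On simulated counts of this depth, in which 178 to 183 genes were changed, the same test at the adjusted threshold recovered 67.7%, 64.9% and 58.6% of genes changed 2-fold in M1, M2 and M0, and 31.7%, 28.1% and 40% of those changed 1.5-fold. The changed genes were drawn from all genes that passed the filter and were not matched to the members for count. Among such genes smaller differences would often be missed, and the share missed among members was not tested. An adjusted threshold recovers fewer genes where fewer are changed.

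**Figure D5:**
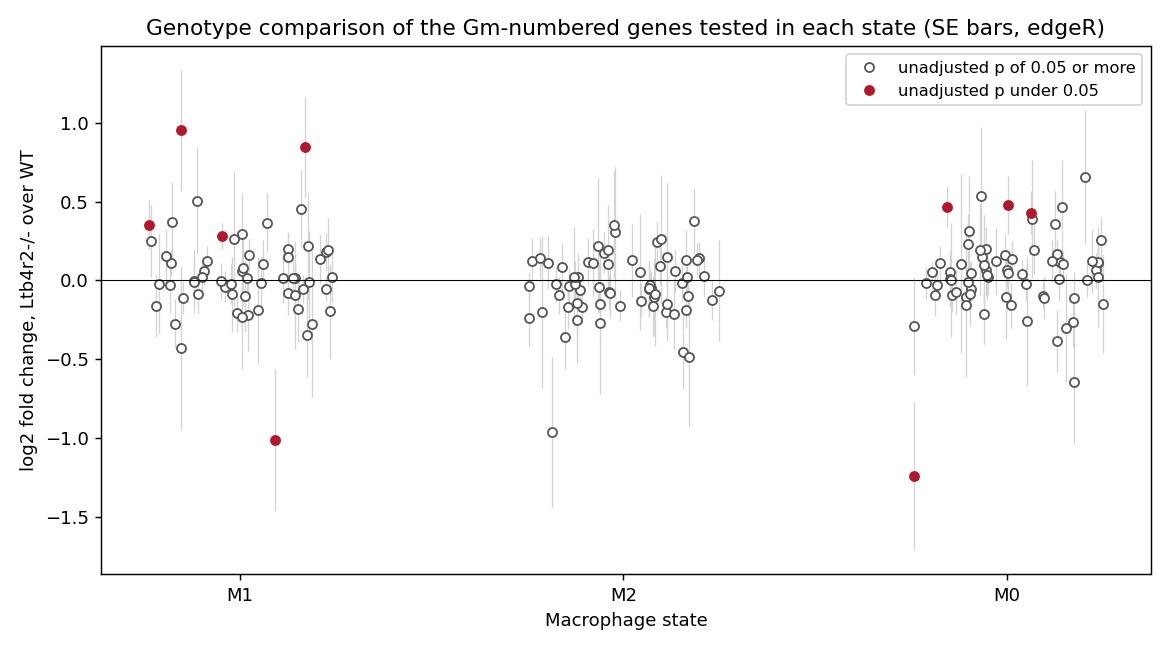
Fitted log2 fold change of Ltb4r2-/- over WT (vertical axis) of the Gm-numbered genes tested in M1 (60), M2 (65) and M0 (68) (horizontal axis, points spread sideways at random), with SE bars and filled points for an unadjusted p under 0.05 of edgeR. None passed the adjusted threshold, and filled points number 5 in M1, 0 in M2 and 4 in M0.

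The libraries of the genotypes did not overlap for 2 members in M1 (3.33%, against 3.67% of all genes tested), 0 in M2 (against 2.18%) and 4 in M0 (5.88%, against 3.55%). In M0 these were Gm10532, Gm19557, Gm9920 and Gm15511, all higher in Ltb4r2-/-. Gm10532, within Ctif, had 252, 248, 276 and 254 CPM in Ltb4r2-/- M0, against 172, 178, 221 and 164 CPM in WT M0. Gm19557, within Stn1, a telomere maintenance gene, had 252, 236, 249.8 and 253 CPM in Ltb4r2-/- M0, against 194, 193, 201 and 137 CPM in WT M0. Gm9920 had 148 to 215 CPM against 98.3 to 145.1 CPM, and Gm15511, within the nuclear receptor gene Rora, had 65.9 to 87.0 CPM against 54.4 to 65.8 CPM. The log2 fold changes were 0.47 ± 0.13, 0.43 ± 0.14, 0.48 ± 0.19 and 0.36 ± 0.21, with adjusted p of 0.31, 0.53, 0.68 and 0.90 by edgeR. No permutation p is given, since choosing genes whose libraries do not overlap fixes it.

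In M1, Gm11696 was higher in Ltb4r2-/- cells at 3853, 3774, 3936 and 3732 CPM, against 3474, 2802, 3358 and 3109 CPM in WT cells, with a log2 fold change of 0.28 ± 0.08 (adjusted p = 0.46, edgeR). Gm15787, opposite the ubiquitin ligase gene Chfr, was lower at 609, 579, 636 and 583 CPM, against 645, 654, 683 and 651 CPM in WT cells (−0.11 ± 0.10, adjusted p = 0.85). The other members with an unadjusted p under 0.05, named after their values were seen, were Gm16907 (0.35 ± 0.16), Gm10389 (0.84 ± 0.32), Gm45914 (0.95 ± 0.38) and Gm10684 (−1.01 ± 0.45) in M1 and Gm1976 (−1.24 ± 0.47) in M0, as log2 fold changes of Ltb4r2-/- over WT with adjusted p of 0.58 to 0.68 by edgeR. Differences between the genotypes in their response to polarization were tested as an interaction, which called 0 of 72 members for M1 and 0 for M2 (0.0328% of all genes for each), with 2 members for M1 and 5 for M2 at an unadjusted p under 0.05 by edgeR (2.78% and 6.94%, against 4.63% and 4.73% of all genes) and, by DESeq2, 1 and 5. Those of edgeR were Gm19557 (−0.56 ± 0.25) and Gm5088 (−2.27 ± 0.96) for M1, and Gm19557 (−0.51 ± 0.23), Gm5901 (−0.74 ± 0.31), Gm20735 (−0.58 ± 0.25), Gm9920 (−0.75 ± 0.35) and Gm15511 (−1.34 ± 0.58) for M2, as log2 differences of the response in Ltb4r2-/- from that in WT cells. Fitted log2 fold changes had the same sign in both genotypes for 68 of 72 members in M1 and 63 in M2. This share was not computed over all genes, so it is not shown to be particular to the members. Of the members only Gm16973, Gm9199 and Gm5088 lie on chromosome 14 with Ltb4r2, at 0.938, 17.3 and 34.1 Mb from it, and their genotype values ranged from −0.28 ± 0.15 for Gm16973 in M1 to 0.66 ± 0.42 for Gm5088 in M0, with no adjusted p under 0.05.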

How the data were processed

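RNA of 24 BMDM cultures was sequenced from strand-specific polyA libraries. Reads passed through cutadapt, STAR (mm10) and HTSeq, from which the authors deposited raw counts per gene, and they also deposited log2 values of counts normalized by DESeq2, which served here only to check the counts. Tool versions and the strand setting of the counting are not given in the sources used here. Groups follow the sample labels, with 4 libraries each, and the labels do not say which animal a replicate number stands for.

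Counts were fitted with edgeR 4.0.16 (R 4.3.3, quasi-likelihood test, TMM, filterByExpr), with Benjamini-Hochberg adjustment over all genes at 0.05. Genotypes were compared on the 8 libraries of a state, and polarization and its interaction with genotype in 1 fit of 24 libraries. SEs were taken as the absolute log2 fold change over the square root of F. The fits were tested on simulated data. DESeq2 1.42.0, other scalings and filters, a replicate block and leaving out each library were alternatives. Exon overlaps come from GENCODE M21 and promoters from RefSeq GRCm38.p6. Members and marker lists were chosen with earlier results of these data known. Members were named by summed count, by the size of called changes upward and downward (mean of 20 counts or more), by opposite calls, by separation of the genotypes and, without a call, by summed count. Gm28043, Gm16023, Gm6297, Gm16062, Gm10658, Gm867, Gm10390, Gm45914, Gm10684, Gm1976, Gm5901, Gm19710 and Gm20735 were named after their values were seen. Some promoter motifs that were searched are not reported here.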

Additional observations from a re-analysis of the deposited data

Results flagged for a closer look

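In groups of 4 libraries, a library was picked out where its gap to the nearest of the others, divided by the range of the group, exceeded the 95% critical value of Dixon's test, which chance gives in about 1 in 20 groups. Of 225 groups checked 14 were picked out. In WT M1, Gm45916 was highest in replicate 4 at 5908 CPM (ratio 0.892), Gm15471 in replicate 3 at 390 CPM (0.974), Gm16845 in replicate 2 at 244.7 CPM (0.835) and Gm6654 in replicate 3 at 56.1 CPM (0.864), while Gm16982 was lowest in replicate 4 at 1181 CPM (0.882). In Ltb4r2-/- M1, Gm16982 was highest in replicate 4 at 1406.5 CPM (0.83006) and Gm11978 in replicate 2 at 415 CPM (0.846). In M2, Gm7854 was lowest in Ltb4r2-/- replicate 3 at 25.4 CPM (0.880) and Gm10814 in WT replicate 2 at 1439 CPM (0.884). In Ltb4r2-/- M0, Gm19557 was lowest in replicate 2 at 236 CPM (0.835), and the share of counts in the members was highest in replicate 4 at 4.47% (0.887). In WT M0, replicate 4 was lowest for Gm16712 at 1704 CPM (0.913) and for Gm19557 at 137 CPM (0.874), and highest for Gm10584 at 59.97 CPM (0.899). The cause of these values was not tested.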

How the results depend on the processing

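Counts of 427825 to 729580 per library limit what low members can show. With library totals alone the members called higher in M1 numbered 11 in Ltb4r2-/- and 13 in WT cells, and those called lower in WT M1 numbered 40. With no filter they were 14 and 15 higher in M1 and 13 higher in WT M2. With a mean of at least 50 counts, which left 48 members tested, 18 were lower in Ltb4r2-/- M1 and 14 higher in WT M1. Leaving out 1 library gave 15 to 21 members higher in WT M2, with 15 without WT M2 replicate 1 or 4. It gave 19 to 22 higher and 25 to 28 lower in Ltb4r2-/- M1, 18 to 20 and 25 to 27 in WT M1, 16 to 22 and 16 to 20 in Ltb4r2-/- M2, 9 to 12 lower in WT M2, and 0 in every genotype and interaction comparison.

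Values that changed sign are log2 fold changes. Of those listed here, Gm19897 and Gm15787 in both genotypes and Gm16907 in Ltb4r2-/- cells had been called. With library totals alone 10 M1 calls were lost in Ltb4r2-/- and 9 in WT cells, and the sign of each of these is not given here. With library totals alone the M1 values in Ltb4r2-/- and WT cells were −0.58 and −0.48 for Gm45916, −0.34 and −0.39 for Gm19897, −0.12 and −0.36 for Gm16907, −0.30 and −0.21 for Gm15787, −0.38 and −0.36 for Gm15350, −0.43 and −0.37 for Gm16740 and −0.49 and −0.31 for Gm16973, and −0.50 for Gm12992 in WT cells. With no filter they were −0.16 and −0.031 for Gm45916, −0.016 for Gm16740 and −0.077 for Gm16973 in Ltb4r2-/- cells and −0.049 for Gm12992 in WT cells. Gm45916 in Ltb4r2-/- M1 had −0.037 with a mean of at least 50 counts and −0.040 with only the 8 libraries compared, and Gm16982 in WT M2 had −0.0038 with a mean of at least 50 counts. Leaving out 1 library gave ranges across 0 in Ltb4r2-/- M1 for Gm45916 (−0.066 to 0.067), Gm16740 (−0.045 to 0.23), Gm16973 (−0.014 to 0.28) and Gm10389 (−0.48 to 0.10), in Ltb4r2-/- M2 for Gm16861 (−0.11 to 0.025) and Gm15471 (−0.0018 to 0.19), and in WT M2 for Gm16982 (−0.013 to 0.12) and Gm15471 (−0.015 to 0.15). The cause was not tested. DESeq2 left 116 of the values of single members on their side of the threshold, with 5 weaker and 1 stronger.

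With the replicate number as a block, 13 of 13 counts of calls stayed within 1.5 times, with 119 values of single members on their side of the threshold, 2 weaker and 1 stronger. Same-numbered libraries of a genotype correlated in their deviations by −0.069 to 0.137 over 24 pairs, 5 of them above 0.1, and those of the 2 genotypes in a state by −0.21 to 0.095 over 12 pairs. As a hint from the data and not the design, 28 of 48 comparisons of a library with another state of its genotype were highest for its own number. Tsix had 1191 to 2649 counts in all 3 states of Ltb4r2-/- numbers 2 and 3 and WT numbers 1 and 3, and 0 or 1 in the others. The labels do not say that a number marks an animal and not every pair was above 0.1, so the numbers were not taken to pair the libraries, and whether states share animals was not settled.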
